A study of Gallus gallus with 6 samples.

Results

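*FSHR* and *ADCY3* are described here over 6 small yellow follicles of the hen, as 2 of the 17992 genes in the deposited table. They were taken by gene number, gene4883 for *FSHR* and gene6221 for *ADCY3*. *FSHR* encodes the receptor for follicle-stimulating hormone, a G protein-coupled receptor of granulosa cells. *ADCY3* encodes an adenylate cyclase, a membrane enzyme that makes cyclic AMP (cAMP). In granulosa cells, hormone binding to the receptor activates a stimulatory G protein, which activates adenylate cyclase, and cAMP then acts through protein kinase A on genes of steroid synthesis. Small yellow follicles are prehierarchical follicles, from which the next follicle of the laying hierarchy is selected.

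The 6 follicles came from 3 wild-type Jining Bairi hens aged 30 weeks, 2 from each hen, and each follicle gave 1 library. By the study's methods, T4 and T1 came from hen 1, T5 and T2 from hen 2, and T6 and T3 from hen 3. The sample labels give T4, T5 and T6 as the follicles with lower *FSHR* expression and T1, T2 and T3 as those with higher expression. The means of the paper's qRT-PCR are instead higher in T4, T5 and T6, though those of hen 3 lie close together. *FSHR* in the RNA-seq values was higher in T4, T5 and T6, so that the labels go against these values. The follicles were chosen by *FSHR* level in qRT-PCR, and the *FSHR* ratios are therefore not independent of that choice and carry no support. All ratios are T4 over T1, T5 over T2 and T6 over T3.

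Depth was similar among follicles, with an estimated 12557081 to 13933431 fragments on genes per library. Between 11895 and 12497 genes reached 1 FPKM (fragments per kilobase of transcript, corrected for library size). A whole follicle is a mixture of oocyte, granulosa cells, theca and vessels, and in such samples fewer cells of a type and less RNA per cell cannot be told apart. T4 stood apart over all genes, with Spearman correlations of 0.932 to 0.963 with the other follicles, against 0.965 to 0.981 among those. Results over hens are also given without hen 1 where that moved them.

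The primers with which the study measured *FSHR* by qRT-PCR are shown because that assay chose the follicles. They are written 5′ to 3′, and no letter is marked.
FSHR forward: ttccagccttcccaaacta
FSHR reverse: gccgtagaatcacactttcag

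*FSHR* was at 46.4 FPKM in T4, 18.9 FPKM in T5 and 27.8 FPKM in T6, against 11.9 FPKM in T1, 13.1 FPKM in T2 and 13.9 FPKM in T3. The ranges did not overlap. T4, T5 and T6 differed from each other by up to 2.45-fold, while T1, T2 and T3 lay within 1.17-fold. The mean was 31.0 ± 14.0 FPKM in T4 to T6 and 13.0 ± 1.03 FPKM in T1 to T3 (SD, n = 3 each). The fold over the other follicle of the same hen was 3.79 in hen 1, 1.42 in hen 2 and 1.97 in hen 3, on the scale of FPKM with 0.5 added.

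The levels rested on an estimated 1934 fragments in T4 (95% exact Poisson interval 1849 to 2022), 848 in T5 (792 to 907) and 1195 in T6 (1128 to 1265). In the other follicles, the estimate was 527 fragments in T1 (483 to 574), 549 in T2 (504 to 597) and 637 in T3 (588 to 688). These intervals cover counting error only. Those of T1 and T2 overlap, as do those of T2 and T3. The fragment numbers are not scaled to library size, so the intervals do not compare levels between follicles. *FSHR* was a gene of middle abundance. It ranked 2756th of 17992 genes by FPKM in T4, 4922nd in T5 and 4024th in T6, against 6869th in T1, 6344th in T2 and 6367th in T3. Among genes at 1 FPKM or more, it stood at the 76.8th percentile in T4 and the 44.4th in T1.

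*ADCY3* was the more abundant gene per length in every follicle. It was at 346 FPKM in T4, 164 FPKM in T5 and 114 FPKM in T6, against 127 FPKM in T1, 137 FPKM in T2 and 136 FPKM in T3. By FPKM, T6 lay below all of T1, T2 and T3, so the ranges overlapped. The deposited table also holds a normalized count, described below, and the order of T6 differed there. Before any scaling to a common total, that count was 7209 in T6, against 5431 in T1, 6538 in T2 and 6739 in T3. The mean was 208 ± 122 FPKM in T4 to T6 and 133 ± 5.14 FPKM in T1 to T3 (SD, n = 3 each). T1, T2 and T3 agreed within 1.07-fold, closer than they did for *FSHR*, and T4, T5 and T6 differed by up to 3.03-fold. *ADCY3* ranked 351st by FPKM in T4, 697th in T5 and 1138th in T6, against 960th in T1, 869th in T2 and 801st in T3. Among genes at 1 FPKM or more, it lay between the 90.6th percentile in T6 and the 97.0th in T4.

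**Figure D1:**
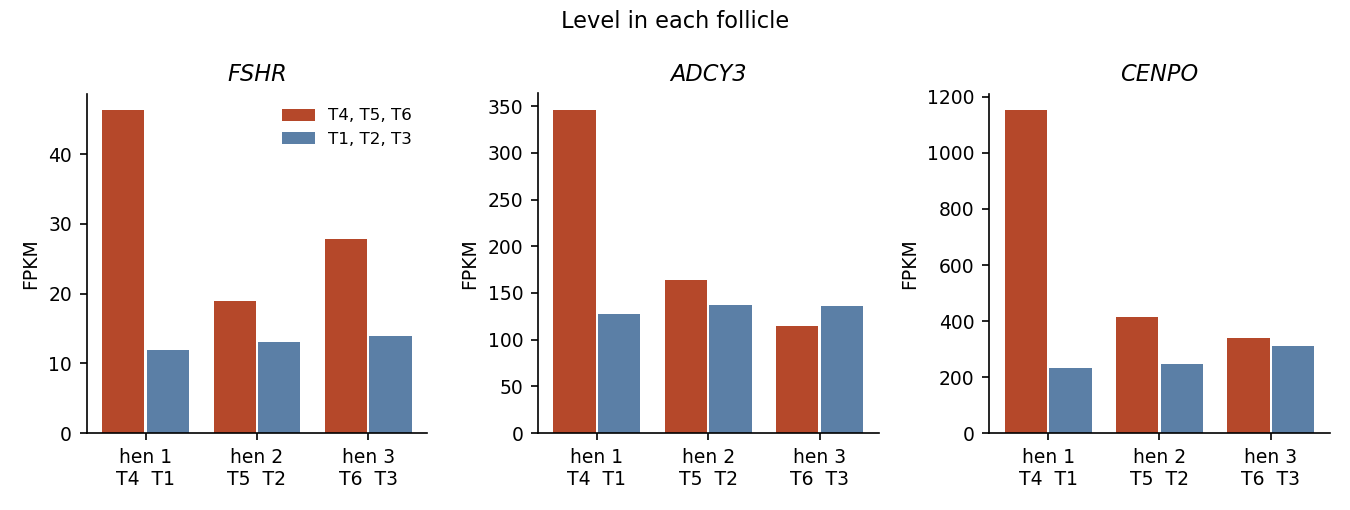
FPKM of *FSHR*, *ADCY3* and *CENPO* in each follicle, by hen, with T4, T5 and T6 in red and T1, T2 and T3 in blue. Each bar is 1 library, so no error bar is drawn; *FSHR* was higher in the red follicle of all 3 hens and *ADCY3* in that of hens 1 and 2.

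The value of *ADCY3* is uncertain, because another gene lies inside its row and may add fragments to it. *ADCY3* is on chromosome 3 from 105073068 to 105099922 on the plus strand, and *CENPO*, which encodes a kinetochore protein, runs on the minus strand from 105083952 to 105098226. The sources used here conflict on the build of these positions. *CENPO* covers 53.2% of the 26855 bases of *ADCY3*. No source used here states that the library kit keeps the strand or that strand was used in counting. Where the rows overlap, strand therefore cannot be relied on to tell fragments of both genes apart. The *ADCY3* row also has 10884 bases before *CENPO* and 1696 bases after it that *CENPO* does not cover. How fragments in the overlap were assigned was not tested. The annotation of gene6221 is also divided, with adenylate cyclase type 3, adenylate cyclase type 9 and *dnajc27* beside *Adcy3* each named in one of the databases that the paper's list cites. *FSHR*, at 7340944 to 7419864 of the same chromosome and on the plus strand, had no other row overlapping it. Of all rows, 382 wholly contained a row of the other strand, or 2.12%.

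**Figure D2:**
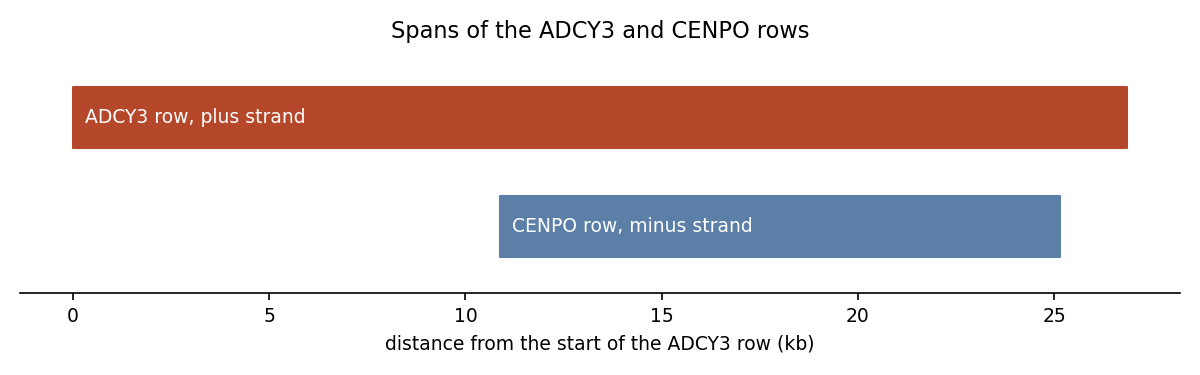
Spans of the *ADCY3* and *CENPO* rows, drawn as distance in kb from the start of the *ADCY3* row. *CENPO*, on the opposite strand, lies wholly within *ADCY3* and covers 53.2% of it.

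*CENPO* was at 1154 FPKM in T4, 414 FPKM in T5 and 340 FPKM in T6, against 233 FPKM in T1, 245 FPKM in T2 and 311 FPKM in T3. Its level exceeded that of *ADCY3* in all 6 follicles, and its ranges did not overlap. The share of all genes whose ranges did not overlap was not computed. *CENPO* ranked 78th by FPKM in T4 and between 276th and 509th in the other follicles. By the normalized count it ranked 7th in T4. The *CENPO* row lies wholly inside that of *ADCY3*, so its values may in turn hold *ADCY3* fragments. T4 over T1 gave *CENPO* a log2 ratio of 2.31, T5 over T2 gave 0.75 and T6 over T3 gave 0.13, so it had the same order over hens as *ADCY3*. The normalized count of *ADCY3* per normalized count of *CENPO* was 0.332 in T4, 0.385 in T5 and 0.307 in T6, against 0.392 in T1, 0.432 in T2 and 0.363 in T3. That ratio varied 1.40-fold over the follicles. The normalized count of *ADCY3* per normalized count of *FSHR* varied 2.08-fold, with T6 at 5.97 and the others between 11.0 and 12.4. By FPKM, both ratios varied more. That of *ADCY3* to *CENPO* varied 1.86-fold, from 0.300 to 0.558, and that of *ADCY3* to *FSHR* varied 2.62-fold. The part of *CENPO* in the *ADCY3* values was not tested, nor was that of *ADCY3* in the *CENPO* values.

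The rows next to both genes had log2 ratios of either sign over the hens. The row before *ADCY3*, 2213 bases away, was at 27.6 FPKM in T4, 13.6 FPKM in T5 and 13.4 FPKM in T6, against 17.7 FPKM in T1, 19.2 FPKM in T2 and 14.0 FPKM in T3. The row after *ADCY3* was between 15.2 and 22.6 FPKM in T4 to T6 and between 16.3 and 24.6 FPKM in T1 to T3. Beside *FSHR*, the row before stayed under 4 FPKM in all follicles, and the row after had 18.8 FPKM in T4, against 53.6 FPKM in T1, and 64.8 FPKM in T6, against 42.0 FPKM in T3. None of these rows carries a name here.

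The deposited table holds 2 values per gene and follicle, and they did not give the same ratios for *ADCY3*. The second value is a normalized count, an estimated number of fragments divided by 1 factor per library, and each library was scaled to a common total before ratios were formed. For *FSHR*, the normalized count gave log2 ratios of 1.90 in hen 1, 0.62 in hen 2 and 0.85 in hen 3, against 1.92, 0.51 and 0.98 by FPKM. For *ADCY3*, the normalized count scaled in this way gave 2.08, 0.65 and -0.02 in hens 1, 2 and 3, against 1.44, 0.26 and -0.25 by FPKM. Before the scaling, the deposited count of *ADCY3* was 7209 in T6 and 6739 in T3. Its sign in hen 3 therefore depended on the scaling. With the scaling, the log2 ratio by the normalized count was higher than that by FPKM by 0.64, 0.39 and 0.22. In hens 1 and 2 this put the log2 ratio of *ADCY3* above that of *FSHR* by the normalized count and below it by FPKM.

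The normalized count per FPKM shows where the values part. Taken from counts as deposited, not scaled to a common total, it also holds differences between library totals. For *ADCY3* it was 70.2 in T4, 65.2 in T5 and 63.0 in T6, against 42.6 in T1, 47.8 in T2 and 49.7 in T3, with no overlap. For *FSHR* it lay between 41.0 and 45.7 in all follicles. Over the follicles, this quantity ranged 1.65-fold for *ADCY3*, wider than for 95.8% of the 10905 genes at 1 FPKM or more in every follicle, and 1.11-fold for *FSHR*. The median gene ranged 1.12-fold. Per kilobase of the listed transcript length, the normalized count per FPKM was 3.61 for *ADCY3*, 7.08 for *CENPO* and 12.3 for *FSHR*, against a median of 10.6 over all these genes. The listed length is 15617 bases for *ADCY3*, 8842 for *CENPO* and 3486 for *FSHR*. The median log2 range of normalized count per FPKM was 0.21 over the 305 rows that contain a row of the other strand and 0.17 over the other 10600 rows.

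**Figure D3:**
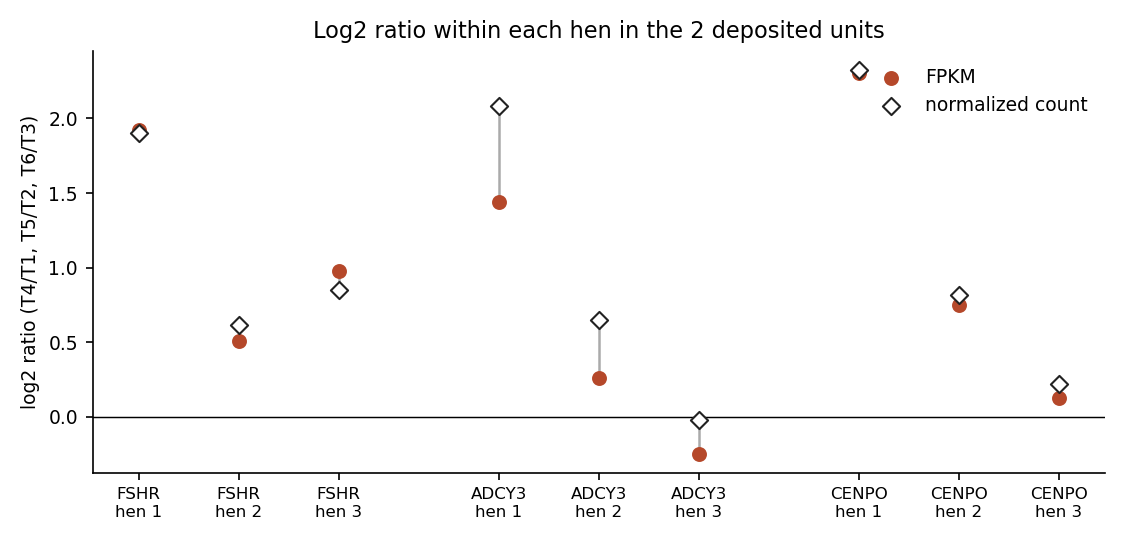
Log2 ratio within each hen (T4 over T1, T5 over T2, T6 over T3) of *FSHR*, *ADCY3* and *CENPO* from FPKM (filled circles) and from normalized counts at a common library total (open diamonds), both with 0.5 added. The symbols lie close for *FSHR* and *CENPO*, while for *ADCY3* the diamond is above the circle by 0.64, 0.39 and 0.22.

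Over the 3 hens, neither gene passed the test across all genes. The hen was a block in the limma fit to log2(FPKM + 0.5), over the 12381 genes that reached 1 FPKM in 3 or more follicles. The mean log2 ratio of *FSHR* was 1.14 (SE 0.30, higher in 3 of 3 hens, adjusted p = 0.774), and that of *ADCY3* was 0.49 (SE 0.34, higher in 2 of 3 hens, adjusted p = 0.785). Of all genes tested, 0 were called at an adjusted p under 0.05, or 0.0%, and 708 had an unadjusted p under 0.05. The unadjusted p from limma was 0.0096 for *FSHR*, which is among the 708, and 0.205 for *ADCY3*. The adjusted p of *FSHR*, 0.774, was the smallest of this limma fit, and other genes shared it. Without hen 1, the mean was 0.74 for *FSHR* (adjusted p = 0.0133, limma) and 0.01 for *ADCY3* (adjusted p = 0.994). That fit called 205 genes higher, or 1.66%. As the follicles were chosen by *FSHR* level, neither the call of *FSHR* nor its unadjusted p over 3 hens carries support. The *FSHR* call was lost with the robust option of eBayes off, which was chosen after seeing the data (adjusted p = 0.15, limma). Over all alternatives, the adjusted p from limma ranged from 0.0133 to 0.999 for *FSHR* and from 0.679 to 0.999 for *ADCY3*.

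Within a hen, 1 follicle is set against 1, so the following counts have no test. In hen 1, *FSHR* had the 155th highest log2 ratio of 12688 genes at 1 FPKM or more in T4 or T1, and *ADCY3* the 322nd. Both were among the 682 genes at least 2-fold higher in T4, or 5.38%. In hen 2, *FSHR* ranked 838th and *ADCY3* 2392nd of 12585 genes, and neither was among the 184 at least 2-fold higher in T5, or 1.46%. In hen 3, *FSHR* ranked 356th of 12706 genes, just under 2-fold, and *ADCY3* ranked 9102nd, where 331 genes were at least 2-fold higher in T6, or 2.61%. *FSHR* thus lay at the 93.3rd percentile or above in all hens, and *ADCY3* between the 28.4th and the 97.5th. The name of *ADCY3* comes from the genes that the paper listed as differing between T1 and T4, so its direction in hen 1 is not independent, and the other pairs were not used for that list.

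Whether cyclase and receptor moved together depended on the hen and on the unit. By FPKM, the log2 ratio of *ADCY3* minus that of *FSHR* was -0.49 in hen 1, -0.25 in hen 2 and -1.22 in hen 3. The mean difference was -0.65 ± 0.51 (SD, n = 3 hens), lower for *ADCY3* in 3 of 3 hens, with p = 0.25 in a two-sided exact sign-flip permutation test, the smallest value that 3 hens allow. By the normalized count, the differences were 0.18, 0.04 and -0.87, with a mean of -0.22 ± 0.57 (SD, n = 3) and p = 1 in the same exact test. T6 over T3 was the pair with the widest difference between the genes in both units.

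Over the 6 follicles, the *ADCY3* profile was at a distance of 1.14 from that of *FSHR*. This is the Euclidean distance between log2(FPKM + 0.5) values centred on the mean of each gene, and *ADCY3* ranked 594th of the other 12380 genes. Pearson's r was 0.73 over 6 points that share 3 hens. Without hen 1, *ADCY3* ranked 8000th, and without hen 3 it ranked 80th. By the normalized count it ranked 211th. *CENPO* was closer to *FSHR* than *ADCY3* was, at a distance of 0.81 and the 149th rank.

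The 5 named genes with profiles closest to *FSHR* were *PTGR1*, *DHRS7*, *CHST15*, *NPC2* and *PHLPP1*. Names were available for 303 genes only, and these 5 ranked 2nd, 3rd, 5th, 7th and 9th of 12380 genes, so that a gene with no name was the closest. *PTGR1*, an enzyme that inactivates leukotrienes and prostaglandins, was at a distance of 0.28 with 110 FPKM in T4, 48.8 in T5 and 67.0 in T6, against 26.2 in T1, 29.7 in T2 and 38.9 in T3. *DHRS7*, a short-chain dehydrogenase, was at a distance of 0.30, with a log2 ratio of 1.91 for T4 over T1, 0.50 for T5 over T2 and 1.39 for T6 over T3. *CHST15*, a sulfotransferase of chondroitin sulfate, was at 0.35. *NPC2*, which moves cholesterol out of lysosomes, was at 0.37, and *PHLPP1*, a phosphatase of the kinase AKT, at 0.41. Their higher level in T4, T5 and T6 follows from their choice by likeness to *FSHR*.

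Closest to *ADCY3* among the named genes were *TRIM24*, *USP6*, *KLHL36*, *IGF1R* and *KDM7A*, at distances of 0.29 to 0.46 and ranks of 2 to 20 by FPKM. *TRIM24*, a cofactor of nuclear receptors, had log2 ratios of 1.09 in hen 1, 0.20 in hen 2 and -0.12 in hen 3. *IGF1R*, the receptor of insulin-like growth factor 1, was at 39.2 FPKM in T4, 21.3 in T5 and 17.4 in T6, against 15.9 in T1, 16.8 in T2 and 14.7 in T3. By the normalized count these genes ranked between 22nd and 104th. *CENPO* was at the 413th rank from *ADCY3* by FPKM and at the 5th by the normalized count.

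Of 63 genes listed for cAMP signalling, 18 could be matched to a gene number, the pair of genes described here included. All 18 could be named only because the paper listed them as differing in hen 1, so their differences in hen 1 are fixed by that choice. The list was also chosen with earlier results of these data known. All genes are therefore not a like background for the shares and medians below, and no excess of cAMP genes follows from them. By FPKM, 8 of the other 16 were higher in T4, T5 and T6 in all 3 hens, 1 was lower in all and 7 went both ways. Of these 16, 11 passed the filter of the fit and 0 were called by limma, against 0.0% of all genes. Of those at 1 FPKM or more in a hen, T4 had 10 of 16 at least 2-fold higher, T5 had 2 of 10 and T6 had 5 of 14, where 5.38%, 1.46% and 2.61% of all genes were. At least 2-fold lower were 5 in T4, 0 in T5 and 1 in T6, where 13.3%, 3.31% and 4.41% of all genes were at least 2-fold lower. The median log2 ratio of the 16 was 1.36 in hen 1, 0.38 in hen 2 and 0.40 in hen 3, against 0.01, -0.02 and 0.01 over all genes.

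Among receptors, *HTR7*, a serotonin receptor that raises cAMP, was at 7.18 FPKM in T4, 3.58 FPKM in T5 and 7.84 FPKM in T6, against 2.40 FPKM in T1, 1.55 FPKM in T2 and 2.92 FPKM in T3. Its log2 ratios of 1.40, 0.99 and 1.29 varied less over hens than those of *FSHR*. The histamine receptor *HRH3* and the opioid receptor *OPRM1*, which lower cAMP, were also higher in 3 of 3 hens, with log2 ratios of 2.81 and 1.15 in hen 1, 0.52 and 0.23 in hen 2, and 2.17 and 0.94 in hen 3. The galanin receptor *GALR3* had log2 ratios of 1.98, 0.25 and 1.10. *HRH3* and *GALR3* stayed under 1 FPKM in T1, T2 and T3. Receptors for other ligands moved unevenly. *VIPR2*, a receptor of vasoactive intestinal peptide, was at 0.711 FPKM in T4, 3.06 FPKM in T5 and 6.89 FPKM in T6, against 4.48 FPKM in T1, 0.815 FPKM in T2 and 16.3 FPKM in T3, so the higher follicle differed from hen to hen. The adenosine receptor *ADORA1*, the glutamate receptor *GRM4* and the receptor partner *RAMP2* had log2 ratios of -2.47, -1.51 and -2.39 in hen 1. In hens 2 and 3 their log2 ratios lay between -0.15 and 0.50. The calcitonin receptor *CALCR* was low throughout, with its highest level, 1.02 FPKM, in T4.

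Of the signalling proteins, the G protein subunit *GNAO1* was at 92.3 FPKM in T4, 25.1 FPKM in T5 and 41.6 FPKM in T6, against 24.4 FPKM in T1, 17.3 FPKM in T2 and 11.0 FPKM in T3. Its ranges did not overlap, a trait whose share over all genes was not computed, and T5 lay close to T1. *AKAP7*, an anchor of protein kinase A, was at 15.4 FPKM in T4, 8.25 FPKM in T5 and 16.5 FPKM in T6, against 4.66 FPKM in T1, 4.44 FPKM in T2 and 5.19 FPKM in T3. The phosphodiesterases *PDE10A* and *PDE11A*, which break down cyclic nucleotides, had mean log2 ratios of 1.06 and 0.64. *RGS4*, which ends signals of some G proteins, was lower in T4, T5 and T6 in 3 of 3 hens, at log2 ratios of -1.50, -0.51 and -0.24. The cAMP-binding *POPDC2* and the channel subunit *CNGB1* were under 2 FPKM in all follicles.

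**Figure D4:**
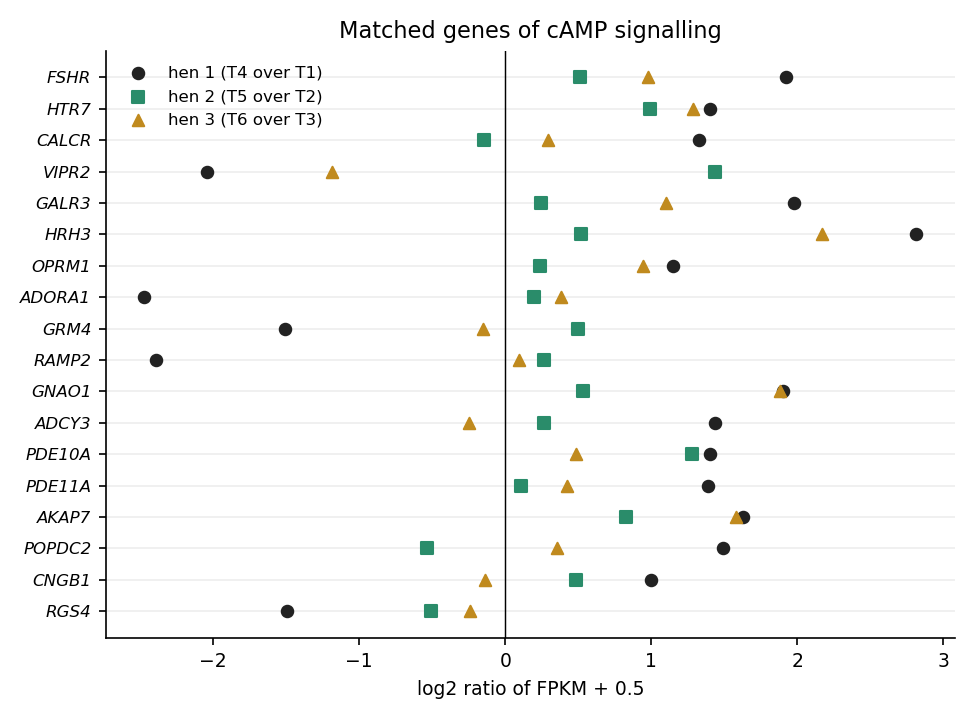
Log2 ratio of FPKM with 0.5 added for the 18 matched genes of cAMP signalling, with a circle for hen 1, a square for hen 2 and a triangle for hen 3. Most circles, which belong to the hen used to name these genes, lie right of 0. *RGS4* is the gene with all 3 symbols left of 0.

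All markers of cell types could be named only because the paper listed them as differing between T1 and T4. Their differences in hen 1 are therefore fixed by that choice and are given as a description, while markers that did not differ there could not be matched. The 7 matched granulosa markers of 12 had a median log2 ratio of 1.55 in hen 1, 0.14 in hen 2 and 1.07 in hen 3. They summed to 5499 to 13587 FPKM in T4 to T6 and to 2316 to 2845 FPKM in T1 to T3, with none at 0, and *ZP3* alone was 10951 FPKM in T4. *ZP3* and *ZPD*, egg envelope proteins that granulosa cells of birds make, and the inhibin subunit *INHA* were at least 2-fold higher in 3 of 3 hens. The transcription factors *GATA4*, *GATA6*, *NR5A1* and *NR0B1* were so in hen 1, and *NR5A1* alone of these in hen 3. The log2 ratio of *GATA4* was -0.04 for T5 over T2 and -0.07 for T6 over T3, and that of *NR0B1* was -0.43 for T6 over T3. In hens 2 and 3, 3 of 7 were at least 2-fold higher in T5 and 4 of 7 in T6, where 1.46% and 2.61% of all genes were. All 7 were at least 2-fold higher in hen 1, so all genes are not a like background for them. The share among other genes named from hen 1 was not computed, and no excess of granulosa markers follows. Over all hens, 0 of 7 were called by limma. The FPKM of *FSHR* was 0.424% of that of *ZP3* in T4, 0.363% in T5 and 0.660% in T6, against 0.609% in T1, 0.515% in T2 and 0.693% in T3. Set against *ZP3*, *FSHR* was thus lower in T4, T5 and T6 in all hens, though only narrowly in hen 3. It was 34.2% of *GATA6* in T4, 36.6% in T5 and 38.1% in T6, against 24.3% in T1, 28.0% in T2 and 27.2% in T3, higher in all hens. Set against *INHA*, *FSHR* was lower in T4, T5 and T6 in all hens, and against *GATA4* it was higher in all. Against *NR5A1* it was higher in hens 1 and 2 and lower in hen 3. The direction therefore depended on the marker chosen.

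The 9 matched stroma markers of 10 had a median log2 ratio of 0.01 in hen 2 and -0.35 in hen 3, and of -2.40 in hen 1, where their naming required a difference. They summed to 1239 to 7246 FPKM in T4 to T6, with T4 the lowest, and to 4773 to 8231 FPKM in T1 to T3. The 5 matched endothelial markers of 7 had medians of -2.10, 0.19 and -0.27, and the 4 matched leukocyte markers of 5 had -1.76, 0.15 and -1.05, with the same limit in hen 1. The nerve and Schwann cell marker *SOX10* had 0.366 FPKM in T4, against 2.99 FPKM in T1. No red blood cell marker was matched. In hens 2 and 3, *FSHR* had log2 ratios of 0.51 and 0.98. The stroma medians there were 0.01 and -0.35, and the granulosa medians were 0.14 and 1.07. The part of these cell types in the values of *FSHR* and *ADCY3* was not tested.

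**Figure D5:**
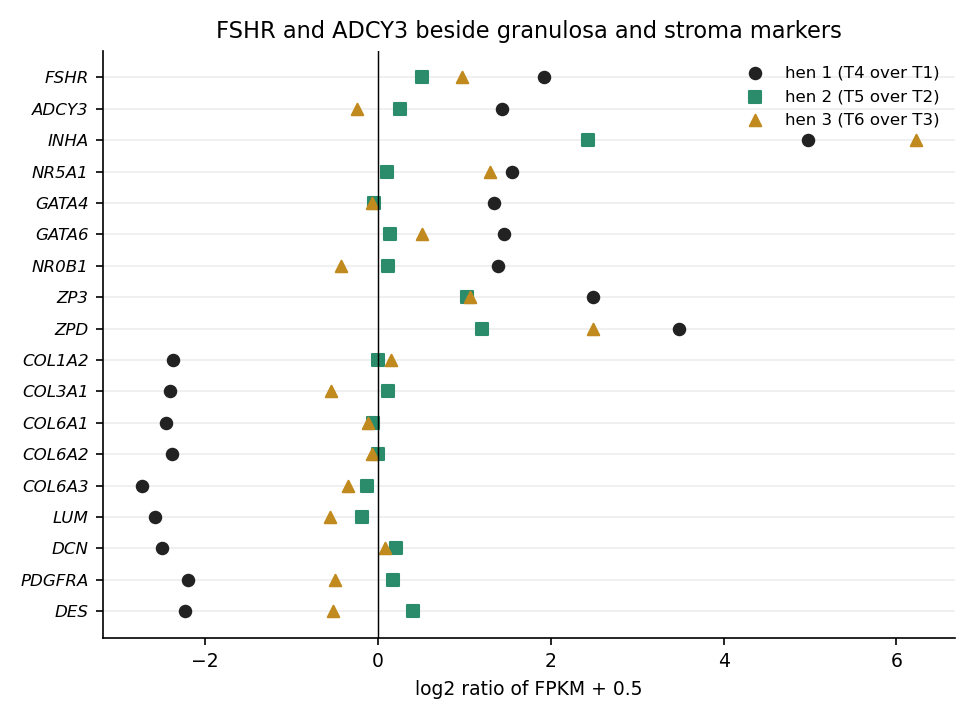
Log2 ratio of FPKM with 0.5 added for *FSHR* and *ADCY3*, then 7 granulosa markers and 9 stroma markers, with a circle for hen 1, a square for hen 2 and a triangle for hen 3. The stroma circles, which belong to the hen used to name these genes, lie between -2.73 and -2.20, while the stroma squares and triangles lie between -0.56 and 0.41.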

How the data were processed

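RNA of 6 single follicles was sequenced by the authors from poly(A) RNA on an Illumina instrument. The authors deposited FPKM per gene, corrected for transcript length and library size. Bowtie 0.12.2, Cufflinks and a mouse build, mm8, stand in the submitters' processing notes, while the paper names Gallus_gallus-5.0. Beside FPKM, the authors deposited a normalized count, a signal whose values under 100 were whole multiples of 1 step for 86.9% to 87.3% of genes in a library (tolerance 0.02). The rest were fractions, so no count model was used, and fragment numbers are estimates from that step. The deposited table holds 1 further column of fragment numbers with no follicle named, which was not used.

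Levels are FPKM as deposited. Ratios used log2(FPKM + 0.5), and normalized counts were scaled to a common total with 0.5 added, which understates differences of low genes. Hens were compared with limma 3.58.1 under R 4.3.3, by lmFit and eBayes with trend and robust, with the hen as a block and Benjamini-Hochberg adjustment over 12381 genes. The hen of each follicle comes from the paper. After removal of the group means, the follicles of a hen correlated at 0.43, 0.18 and 0.53, and those of different hens at -0.46 to 0.18, so that hen 2 was not set apart from other pairs. The p-values from limma rest on the spread between these 3 hens, with the variance of each gene drawn by eBayes toward that of other genes. The fit was tested on simulated data. The simulated noise was independent between genes, so that test does not cover spread that genes share. Other values were computed in Python 3.11.15 (scipy 1.17.1, pandas 2.3.3, numpy 2.4.6) and drawn with matplotlib 3.10.9.

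Names came from the annotation in the paper's list of genes differing between T1 and T4, with chromosomes from a RefSeq table of chicken genes (GRCg7b); the positions printed are those of the deposited table. Named genes were *FSHR*, *ADCY3*, rows overlapping or next to them, matched members of the cAMP, granulosa and stroma lists, and the 5 named genes closest to each by profile. The members and lists were chosen with earlier results of these data known. Alternatives were other pseudocounts, filters and folds, a scaling by the median of ratios, normalized counts in place of FPKM, no block, other eBayes options and leaving out each hen. The promoter motif search that was planned was not run, as no promoter sequences were used here.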

Additional observations from a re-analysis of the deposited data

How the results depend on the processing

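Precision is limited by 3 hens with 1 library per follicle. Over hens, *FSHR* and *ADCY3* kept a positive mean log2 ratio under all 13 alternatives. Leaving out 1 hen gave means of 0.74 to 1.45 for *FSHR*, and 0.01 to 0.85 for *ADCY3*, and 0 to 466 genes called. *FSHR* passed the limit only without hen 1 (adjusted p = 0.0133, limma), where the robust option also mattered: without it, 125 genes were called and *FSHR* was not. The follicles were chosen by *FSHR* level, so its call carries no support. With 2 hens, 1 residual degree of freedom is left and the spread rests on other genes. Without the hen block, 0 genes were called and the adjusted p from limma was 0.962 for both genes.

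By normalized counts scaled to a common total in place of FPKM, the log2 ratio of *ADCY3* was 2.08 in hen 1, 0.65 in hen 2 and -0.023 in hen 3. As deposited, without that scaling, the *ADCY3* count was higher in T6 than in T3. Its difference from *FSHR* turned positive in hen 1 (0.18) and hen 2 (0.036). Scaling by the median of ratios gave *ADCY3* 0.33 in hen 2. The 6 ratios within hens of *FSHR* and *ADCY3* otherwise moved by less than their 95% counting interval, and the mean difference of both genes kept its sign under all 7 alternatives, between -0.85 and -0.22. *ADCY3* ranked 211th in likeness to *FSHR* by normalized counts, 1378th by Pearson correlation, and between 80th and 8000th when a hen was left out. The cause was not tested. At a fold of 4, the genes higher within a hen were 138, 41 and 52 in hens 1, 2 and 3.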
